A study of Mus musculus with 11 samples.

Results

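Transcripts of *Tlr4* and 9 genes of the cytokine signaling that acts on pain pathways were followed in bulk RNA-Seq of mouse dorsal root ganglia (DRGs), which contain the somata of sensory neurons. The 10 genes (*Tlr4*, *Myd88*, *Ccl2*, *Il1b*, *Il6*, *Tnf*, *Il1r1*, *Tnfrsf1a*, *Il6st* and *Il18*) were taken by gene name from a table of 36670 genes, and each matched 1 gene. They cover a Toll-like receptor, its adaptor, 4 inflammatory cytokines, a chemokine and 3 cytokine receptors. Samples of 4 groups were compared: 3 WT controls (WT_V), 3 WT mice at 4 weeks after paclitaxel (WT_P), 3 *Gpr37l1* KO controls (KO_V) and 2 *Gpr37l1* KO mice at 4 weeks after paclitaxel (KO_P). Paclitaxel (PTX) is an anticancer drug whose use is limited by painful neuropathy, and *Gpr37l1* encodes an orphan GPCR of satellite glial cells. The KO carries the germline allele of the strain B6;129S5-Gpr37l1tm1Lex/Mmucd on a C57BL/6 background, so every cell type of the ganglion lacked the intact gene. The study calls its untreated WT mice naive. The age of the sequenced mice, the ganglia pooled per library and the dose given to these mice were not stated in the sources used here. Each group held 1 sample labelled female and otherwise males. The labels do not say that the samples came from separate mice, so p-values measure the spread between samples.

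TLR4 is the receptor for bacterial lipopolysaccharide, which it binds with the coreceptor MD-2 (gene *Ly96*), and it also responds to proteins released from damaged or activated cells. It signals through the adaptor MYD88, which IL-1 and IL-18 receptors share, to the transcription factor NF-kB and on to genes such as *Il1b*, *Il6*, *Tnf* and *Ccl2*. In DRGs, TNF-α, IL-1β and IL-6 are known to sensitize nociceptors through receptors on the neurons, and CCL2 recruits monocytes that become macrophages.

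Depth was high in every library and differed between groups. Counts summed to 52735648 to 80348732 per library with a median of 75538569. A set of 4 libraries (WT_V 1, WT_P 3, KO_P 2 and KO_P 3) had fewer than 60000000 counts, and they also stood apart in content. In the whole table of tested genes, 15 were over 10 times higher in each of these 4 libraries than in any other. They included *Il10*, an anti-inflammatory cytokine, and the pluripotent stem cell genes *Pou5f1*, *Zfp42*, *Tdgf1* and *Tdh*. *Il10* was 2.22, 3.13, 2.22 and 1.73 FPKM in the 4 libraries and 0 to 0.03 FPKM in the other 7. *Pou5f1* was 3.48, 2.83, 2.75 and 1.67 FPKM against 0 to 0.04 FPKM. Both KO_P libraries and no KO_V library belong to this set, so within KO mice it cannot be told apart from PTX. For PTX in WT, *Tnfrsf1a*, *Myd88* and *Ccl2* are therefore also given within each set. Fold changes with the set as a term of the model are given for PTX in KO on *Tnfrsf1a*. They are also given for the difference of the PTX effect on *Myd88* between genotypes. Other fold changes and marker levels that involve KO_P are given without this term. *Gpr37l1* itself was 14.56 to 35.7 FPKM in WT libraries and 0.21 to 1.15 FPKM in KO libraries, with the highest KO values in KO_P. DRG identity was clear in all libraries: 13 sensory neuron markers summed to 3879 to 4614 FPKM and 6 satellite glia markers to 1141 to 1555 FPKM. Skeletal muscle RNA varied widely. Its 6 markers summed to 13.81 to 458.46 FPKM in WT_V and 3.05 to 153.56 in WT_P. The sums were 89.53 to 518.1 FPKM in KO_V and 60.23 to 85.87 in KO_P. For PTX in WT, all 6 had a negative log2 fold change (median -2.80), 1 with an unadjusted edgeR p under 0.05. None was called. The part of muscle RNA in the changes of members was not tested.

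Promoter sequence was read from RefSeq (GRCm38.p6) for the 8 members with a window in that table, from 250 bases before to 50 bases after the start. Short stretches are shown because they carry letters of textbook patterns, those of NF-kB, STAT and interferon response factors in *Il6* and *Myd88* and the TATA box of general transcription in *Il1b* and *Tnf*. Each line is on the gene's own strand and the capitals mark the matching letters.
Il6 (chr5:30013060-30013089, + strand): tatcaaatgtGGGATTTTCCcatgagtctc
Il1b (chr2:129371153-129371182, - strand): gctttttaggacTATAAAacaagggaggga
Tnf (chr17:35202019-35202048, - strand): ttccccaagggcTATAAAggcggccgtctg
Myd88 (chr9:119340045-119340074, - strand): agggcggagcTTCTCGGAAagcgaaagaag
Myd88 (chr9:119340039-119340068, - strand): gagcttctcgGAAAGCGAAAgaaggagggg
In all, 5 patterns were searched on both strands. The NF-kB pattern GGGNNTTTCC was found in 1 of the 8 members, *Il6*, with its first base at -44 from the start, and in 1.63% of 32851 promoter windows. A TATA box (TATAAA) stood at -31 in *Il1b* and at -29 in *Tnf*, and 13.6% of all windows held one. It was also matched farther upstream in *Il18* and *Myd88*. *Myd88* held the STAT pattern TTCNNNGAA at -46, present in 8.3% of windows, and the interferon response pattern GAAANNGAAA at -40, present in 3.44%, and these overlap by 3 bases. *Tnfrsf1a* had a TTCNNNGAA at -244 and *Il6* an AP-1 pattern (TGANTCA, 7.81% of windows) at -249. The window of *Il6st* had 33 CpG dinucleotides against a median of 7 over all windows, whereas *Il1b* and *Il6* had 3 each and *Il18* had 1. *Tnf* and *Tnfrsf1a* had 11 each, *Myd88* had 13, and the windows of *Il1r1* had 5 and 14. A match describes letters only, and a window without one says nothing of the factor.

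The receptor transcripts *Il6st* and *Tnfrsf1a* were the most abundant of the 10 genes, and *Il6*, *Il1b* and *Tnf* the least (shown in the plot of FPKM by library). FPKM takes out transcript length and sequencing depth, so genes can be compared with each other on it. *Il6st*, which encodes gp130, the signal-transducing chain shared by IL-6, LIF and CNTF receptors, was the highest at a mean of 42.0 ± 2.46 FPKM (SD over 11 libraries) and above 97.0% of the 34133 genes with a nonzero mean. *Tnfrsf1a*, the main TNF receptor, followed with 9.44 ± 1.09 FPKM. *Myd88* had 3.82 ± 0.519 FPKM and *Il18*, a cytokine of the IL-1 family that is stored as a precursor, had 3.005 ± 0.396 FPKM. These 4 genes had at least 163 counts in every library. *Ccl2* (1.77 ± 0.996 FPKM) and *Il1r1*, the IL-1 receptor (1.44 ± 0.422 FPKM), lay near 1 FPKM, and *Tlr4* had 0.537 ± 0.120 FPKM. The inducible cytokines were at the bottom, with 0.147 ± 0.0890 FPKM for *Il6*, 0.122 ± 0.0852 FPKM for *Il1b* and 0.050 ± 0.0458 FPKM for *Tnf*. *Il6st*, *Tnfrsf1a*, *Myd88* and *Il1r1* each exceeded the next gene in this order in 11 of 11 libraries, as did *Tlr4*. The other neighbors were not separated in every library. *Il18* was above *Ccl2* in 9 of 11 libraries, *Ccl2* above *Il1r1* in 7, *Il6* above *Il1b* in 7 and *Il1b* above *Tnf* in 8.

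**Figure D1:**
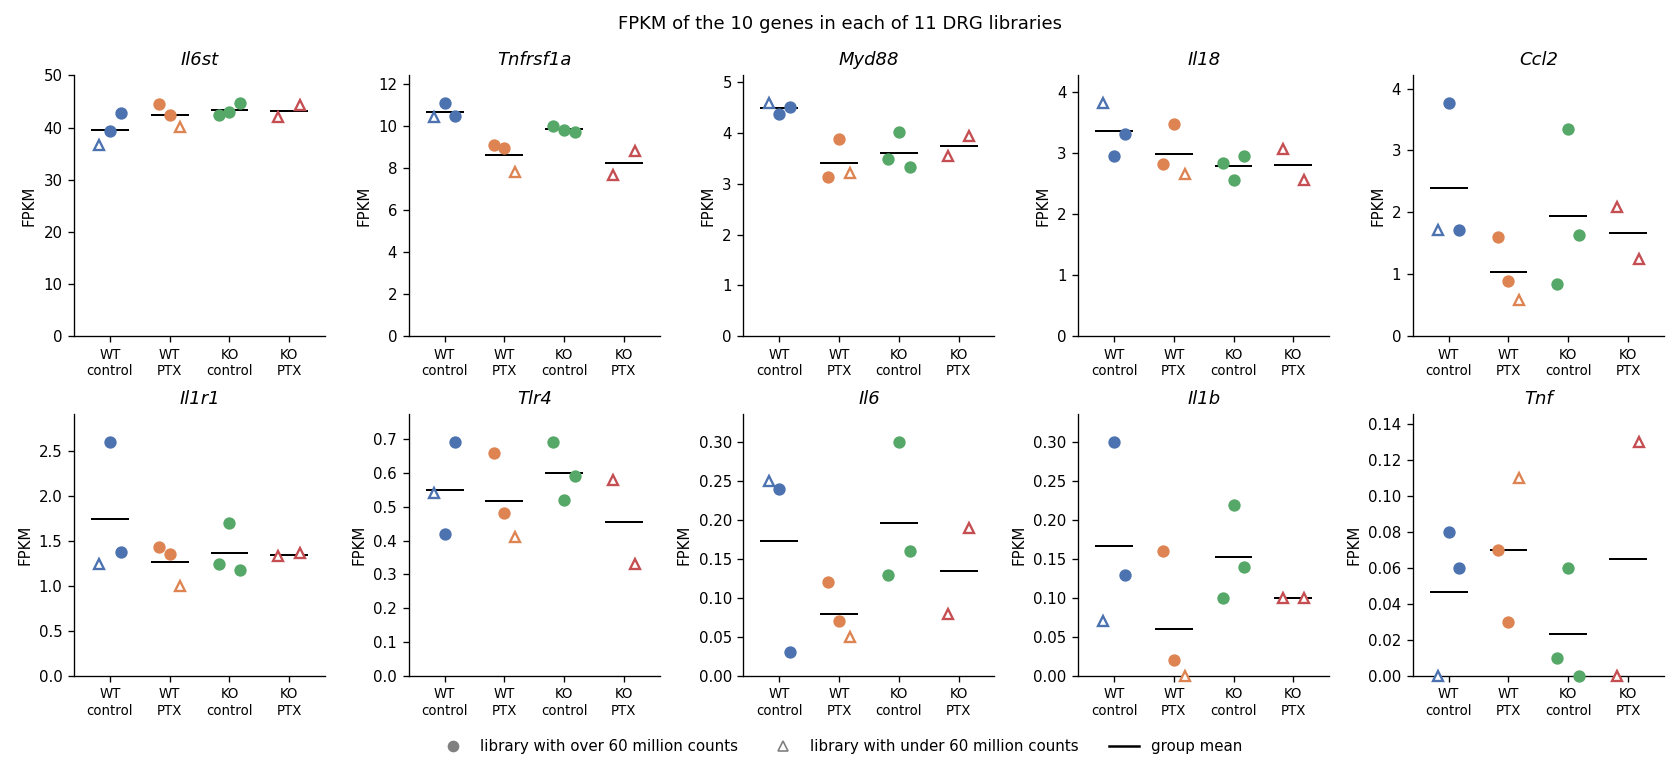
FPKM (vertical axes, each from 0) of the 10 genes in the 11 libraries by group, with a bar at the group mean and open triangles for the 4 libraries with under 60000000 counts. *Il6st* lies between 36.68 and 44.74 FPKM in all libraries, whereas *Il1b*, *Il6* and *Tnf* never exceed 0.30 FPKM.

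Counts behind the low cytokines were small. *Il6* had 6 to 64 counts per library, *Il1b* 0 to 48 and *Tnf* 0 to 14. *Tnf*, the ligand of TNF receptors, had 0 counts in WT_V 1, KO_V 3 and KO_P 2, and a count of 0 in the shallowest library allows up to 0.0569 CPM. At a mean of 6.27 counts, *Tnf* was below the minimum mean of 10 counts and was not tested, and the other 9 genes were. *Il1b* had 0 counts in WT_P 3 and 48 in WT_V 2, and its exons overlap those of Il1bos on the opposite strand, whose reads may be among them. These limits cover counting error only. By contrast, *Tlr4* had 113 to 317 counts, *Myd88* 502 to 911, *Ccl2* 42 to 348, *Il1r1* 387 to 1340, *Tnfrsf1a* 1176 to 2331, *Il18* 163 to 304 and *Il6st* 23320 to 42757.

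*Tlr4* itself (chr4:66827584-66930284, mm10) did not separate any pair of groups. It was 0.54, 0.42 and 0.69 FPKM in WT_V 1 to 3, 0.66, 0.48 and 0.41 in WT_P 1 to 3, 0.69, 0.52 and 0.59 in KO_V 1 to 3, and 0.58 and 0.33 in KO_P 2 and 3. The groups overlapped in each of the 4 two-group comparisons. Its log2 fold changes were between -0.40 (PTX in KO, SE 0.31) and 0.11 (KO against WT controls, SE 0.27), and its unadjusted edgeR p-values were 0.228 to 0.689. At these errors a moderate change of *Tlr4* in either direction was not detectable. Among 12 Toll-like receptor genes, *Tlr4* ranked 3 by mean FPKM (shown in the plot of Toll-like receptors). *Tlr3*, a sensor of double-stranded RNA, was highest at 1.41 FPKM and exceeded *Tlr5*, the flagellin receptor at 0.610 FPKM, in 11 of 11 libraries. *Tlr5* was above *Tlr4* in 7 of 11 libraries, and *Tlr4* was above *Tlr2*, a receptor for bacterial lipoproteins at 0.473 FPKM, in 6 of 11, so these 3 receptors were not separated from each other. The remaining 8 had means of 0.0491 to 0.262 FPKM.

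**Figure D2:**
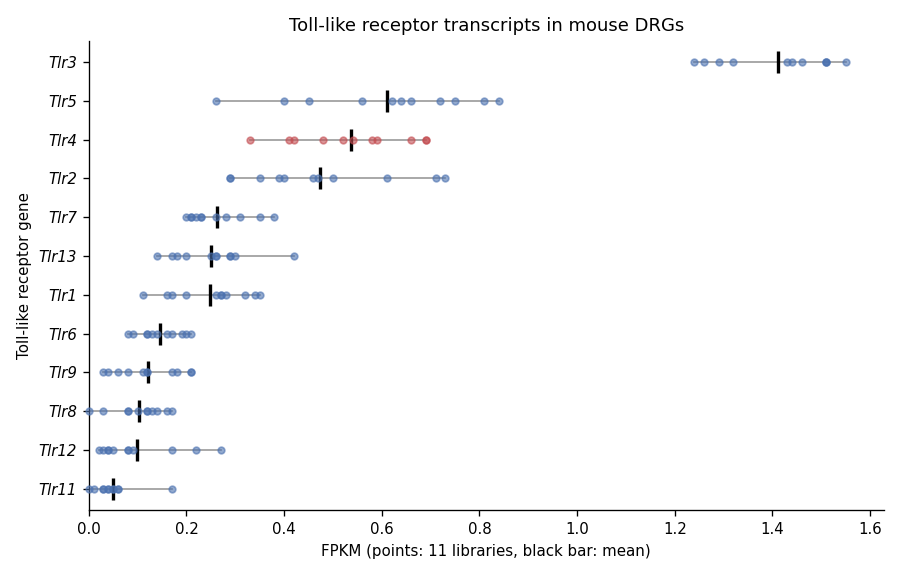
FPKM (horizontal axis, from 0) of 12 Toll-like receptor genes, with a point for each of 11 libraries, a gray line over their range and a black bar at the mean. *Tlr3* stands above the others, and *Tlr4* (red) at 0.33 to 0.69 FPKM shares its range with *Tlr5* and *Tlr2*.

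PTX in WT mice came with lower *Tnfrsf1a*, *Myd88* and *Ccl2*, the 3 members with an unadjusted p under 0.05, but none of the 9 tested members passed the threshold of an adjusted p under 0.05. *Tnfrsf1a* (chr6:125349362-125361874) was 10.43, 11.11 and 10.47 FPKM in WT_V 1 to 3 and 9.08, 8.98 and 7.80 FPKM in WT_P 1 to 3. Every PTX library was below every control library, with group means of 10.67 ± 0.382 and 8.62 ± 0.712 FPKM (SD, n = 3 each). The log2 fold change by edgeR was -0.32 (SE 0.088), with an unadjusted p of 0.00482 and an adjusted p of 0.298. *Myd88* (chr9:119335934-119340041) was 4.59, 4.37 and 4.51 FPKM in WT_V 1 to 3 and 3.14, 3.88 and 3.20 FPKM in WT_P 1 to 3, again without overlap. The log2 fold change was -0.41 (SE 0.13), with an unadjusted edgeR p of 0.00962 and an adjusted p of 0.341. Exons of *Myd88* overlap those of *Acaa1a* on the opposite strand, and whether counting used strand was not given in the sources used here, so reads of these genes may not be told apart. *Ccl2* (chr11:82035571-82037453) was 1.72, 3.77 and 1.71 FPKM in WT_V 1 to 3 and 1.61, 0.89 and 0.59 FPKM in WT_P 1 to 3. The gap between the lowest control and the highest PTX library was narrow for *Ccl2*, and 1 control, WT_V 2, was more than 2 FPKM above the other controls. Its log2 fold change was -1.25 (SE 0.48), with an unadjusted edgeR p of 0.0260 and an adjusted p of 0.401.

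These members are to be read against all genes. Of 19977 genes tested for PTX in WT, 0.00501% passed the adjusted threshold, a single gene (*Per3*, a clock gene, named after its values were seen), and 11.3% had an unadjusted p under 0.05, 6.06% with a lower level. FPKM was lower without overlap in 6.86% of the genes and in 3 of the 10 members. DESeq2 called 1.57% of the genes and 0 of the members, with adjusted p-values of 0.0703 for *Tnfrsf1a*, 0.126 for *Myd88* and 0.147 for *Ccl2*. It gave no adjusted p to *Il1b* and *Il6*. The median log2 fold change of the 9 tested members was -0.41, beside -0.02 over all tested genes, and 8 of the 9 were negative, beside 52.4% of all genes. The exception was *Il6st* at 0.09 (SE 0.063). *Il1b* (-1.56, SE 1.0) and *Il6* (-1.02, SE 0.72) had large fold changes with errors of similar size, and their groups overlapped. Within the libraries under 60000000 counts (1 against 1), the log2 ratio of FPKM was -0.42 for *Tnfrsf1a*, -0.52 for *Myd88* and -1.54 for *Ccl2*. Within the other libraries (2 against 2), it was -0.26, -0.34 and -1.13. Every PTX library was below every control library for these genes, so the shared direction was fixed in advance. Only the sizes of the ratios are informative here. In a fit of the 7 deeper libraries alone, the log2 fold changes were -0.30, -0.39 and -1.40.

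**Figure D3:**
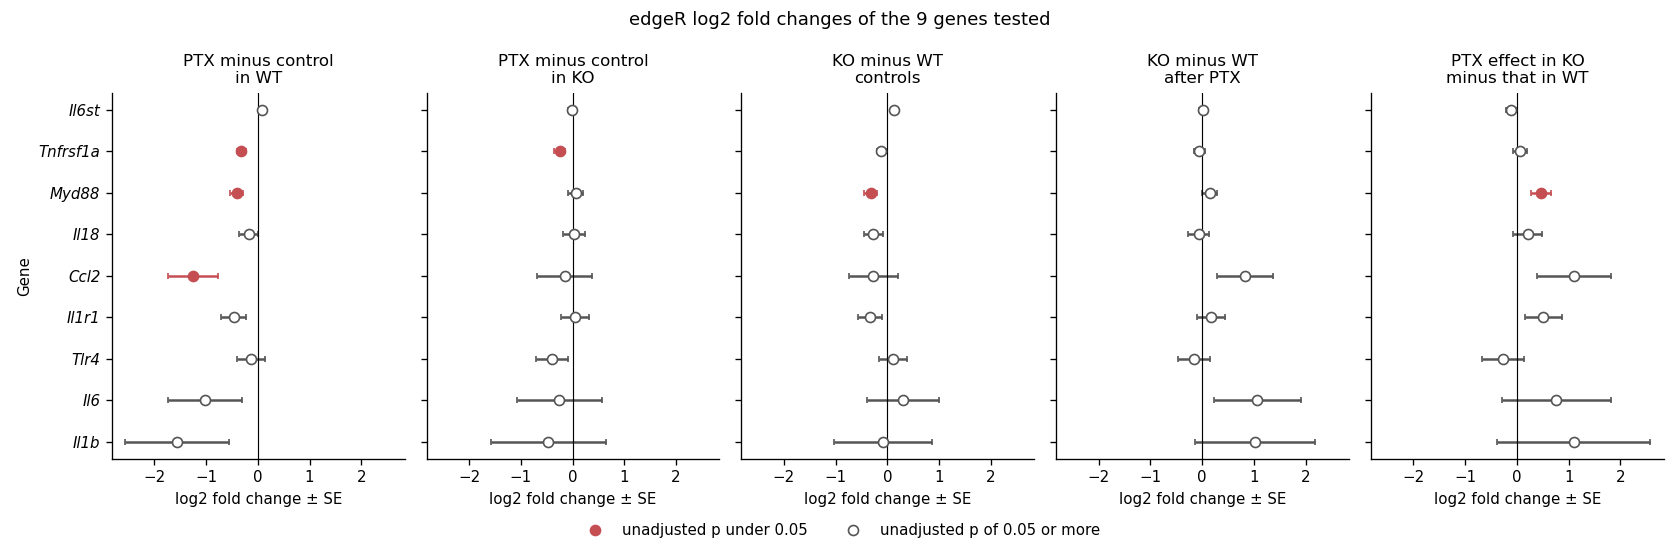
edgeR log2 fold changes with SE (horizontal axes) of the 9 tested genes in 5 comparisons, red where the unadjusted p was under 0.05. *Tnfrsf1a*, *Myd88* and *Ccl2* are red for PTX in WT, *Tnfrsf1a* for PTX in KO, and *Myd88* for KO against WT controls and for the difference of the PTX effect. None passed the adjusted threshold.

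Macrophage transcripts were lower in the same libraries. All 14 macrophage markers had a lower mean FPKM in WT_P than in WT_V, 9 of them without overlap (6.86% of all genes). Of the 14, 10 had an unadjusted edgeR p under 0.05 with a lower level (6.06% of all genes), although 0 passed the adjusted threshold (DESeq2 called 6). The summed markers were 89.25, 88.68 and 72.01 FPKM in WT_V 1 to 3 and 62.24, 62.49 and 48.49 FPKM in WT_P 1 to 3 (shown in the plot of immune markers). The list held *C1qb* and *C1qc*, which encode chains of complement C1q, *Adgre1*, which encodes the macrophage antigen F4/80, and *Csf1r*, the receptor that sustains macrophages. *C1qc* was 5.90, 6.50 and 5.61 FPKM in WT_V and 3.16, 3.55 and 3.27 FPKM in WT_P, with a log2 fold change of -0.86 (SE 0.15) and an adjusted p of 0.240 in edgeR and 0.000181 in DESeq2. None of the 14 markers was at 0 in all libraries. In bulk ganglia, fewer cells of a type and less RNA per cell cannot be told apart, and the part of macrophage RNA in the lower *Tnfrsf1a*, *Myd88* and *Ccl2* was not tested. The 8 neutrophil markers also had lower means in WT_P, but 0 of 8 without overlap, and their sum ranged from 31.26 to 85.46 FPKM in WT_V and from 10.22 to 55.98 FPKM in WT_P. The library with the highest *Ccl2*, *Il1r1* and *Il1b*, WT_V 2, was also the one with the most neutrophil RNA.

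**Figure D4:**
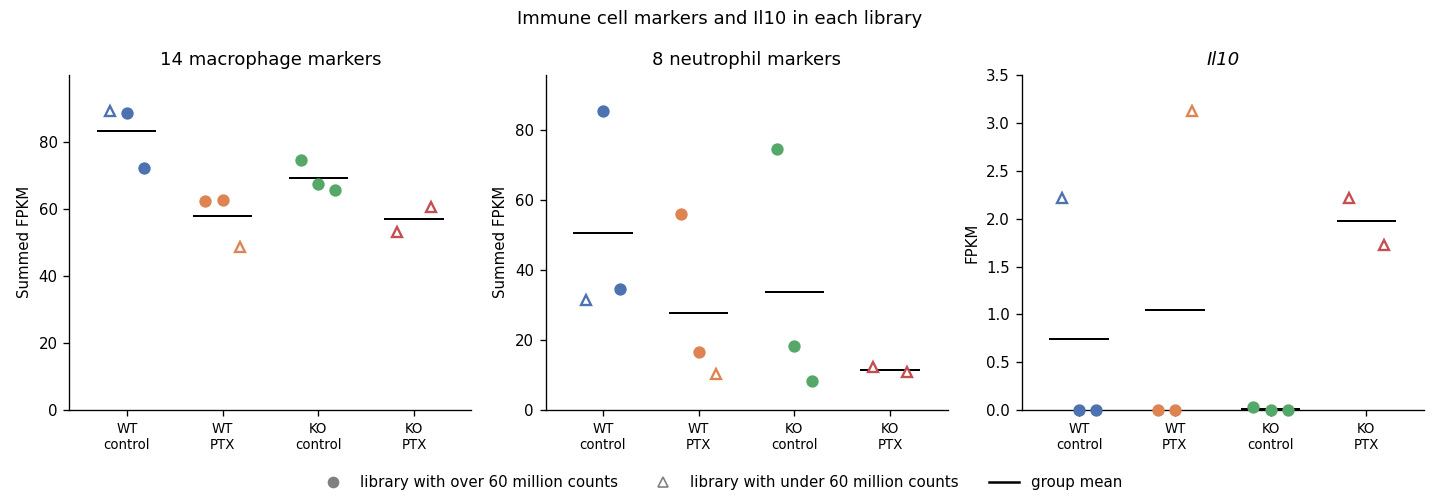
Summed FPKM of 14 macrophage markers, summed FPKM of 8 neutrophil markers and FPKM of *Il10* (vertical axes, from 0) in each library, with a bar at the group mean and open triangles for libraries with under 60000000 counts. The macrophage sum is 72.01 FPKM or more in WT controls and at most 62.49 FPKM after PTX in either genotype, and *Il10* follows the triangles and not the groups.

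PTX in KO mice was compared with 2 treated libraries. *Tnfrsf1a* was 9.99, 9.83 and 9.72 FPKM in KO_V 1 to 3 and 7.66 and 8.82 FPKM in KO_P 2 and 3. The groups did not overlap, as in WT, and the means were 9.85 ± 0.136 (SD, n = 3) and 8.24 ± 0.820 FPKM (SD, n = 2). The edgeR log2 fold change was -0.25 (SE 0.10), with an unadjusted p of 0.0311 and an adjusted p of 0.995. It rested on KO_P 2, since it was -0.09 without that library and -0.40 without KO_P 3. With membership in the low-count set added to the model, it was -0.17 and its unadjusted p was 0.237. *Tnfrsf1a* was the only member lower without overlap, beside 10% of all genes, and the only one of 9 with an unadjusted p under 0.05, beside 4.71% of all genes. No member was called by edgeR or DESeq2, beside 0.00501% and 0.285% of genes. *Myd88* was 3.49, 4.01 and 3.33 FPKM in KO_V and 3.55 and 3.93 FPKM in KO_P, and *Ccl2* was 0.84, 3.34 and 1.64 FPKM and 2.08 and 1.24 FPKM. For both, the KO_P values lay within the KO_V range. The median log2 fold change of the tested members was -0.15, beside -0.01 over all genes. Of the macrophage markers, 11 of 14 had a lower mean in KO_P, 5 of them without overlap, and the sum was 65.48 to 74.54 FPKM in KO_V and 53.07 and 60.63 FPKM in KO_P. Fibroblast and spinal cord markers also differed at this level. All 5 fibroblast markers had a negative log2 fold change, 4 of them with an unadjusted edgeR p under 0.05 (median -0.55, 1 called by DESeq2, 0 by edgeR), and 4 of 6 spinal cord markers were higher at that level, with 0 called by either tool. The fibroblast sum was 142.45 to 178.09 FPKM in KO_V, 88.44 FPKM in KO_P 2 and 150.39 FPKM in KO_P 3. The spinal cord sum was 2.45 to 3.87 FPKM in KO_V, 7.22 FPKM in KO_P 2 and 16.97 FPKM in KO_P 3. It was also high in the low-count WT libraries, at 7.18 FPKM in WT_V 1 and 4.99 FPKM in WT_P 3, against 1.98 to 2.88 FPKM in the other WT libraries. The higher spinal cord sum thus followed the low-count set and was not particular to PTX in KO. KO_P 2, the library with the lowest *Tnfrsf1a*, had the lowest fibroblast sum and the lowest Schwann cell sum (1218 FPKM, against 1517 to 2147 FPKM in the others) of all 11 libraries. Their part in the lower *Tnfrsf1a* was not tested.

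*Tnfrsf1a* was thus lower after PTX without overlap in both genotypes, which held for 0.836% of all tested genes. Averaged over both genotypes, its log2 fold change was -0.28 (SE 0.067), with an unadjusted edgeR p of 0.00163 and an adjusted p of 0.447. Of all genes, 8.59% had an unadjusted p under 0.05. Fits that left out 1 library gave -0.36 to -0.20, where a negative sign was to be expected without overlap. DESeq2 put *Tnfrsf1a* past the threshold with an adjusted p of 0.0389, as the only member. The shares of all genes called were 0.696% in DESeq2 and 0.01% in edgeR. The low-count set held WT_P 3, KO_P 2 and KO_P 3 after PTX but only WT_V 1 of the controls, so it was unevenly spread over this comparison. The unadjusted p of *Tnfrsf1a* was under 0.05 in 19 of 19 alternatives, including the fit with that set as a term. Its adjusted p ranged from 0.0389 to 0.854 over them. The difference of the PTX effect on *Tnfrsf1a* between genotypes was 0.07 (SE 0.13), smaller than its error, with an adjusted edgeR p of 0.927.

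KO controls were compared with WT controls to ask whether loss of *Gpr37l1* alone came with other cytokine signaling transcripts. *Myd88* was lower, at 3.49, 4.01 and 3.33 FPKM in KO_V against 4.59, 4.37 and 4.51 FPKM in WT_V, and the groups did not overlap. The log2 fold change was -0.32 (SE 0.13), with an unadjusted edgeR p of 0.0316 and an adjusted p of 0.732. *Tnfrsf1a* was also lower without overlap, at 9.72 to 9.99 FPKM in KO_V against 10.43 to 11.11 FPKM in WT_V, but its log2 fold change of -0.12 (SE 0.088) had an unadjusted p of 0.207. These 2 of 10 members compare with 4.69% of all genes that were lower without overlap. Only *Myd88* of the 9 tested had an unadjusted p under 0.05, beside 6.77% of all genes, and no member was called by edgeR (0.00501% of genes) or DESeq2 (0.330%). *Il1b*, *Il6* and *Ccl2* overlapped between the controls of both genotypes. Of the macrophage markers, 12 of 14 had a lower mean in KO_V, 5 without overlap, and the part of macrophage RNA in the lower *Myd88* was not tested.

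After PTX, KO and WT mice overlapped for all 10 members, beside 9.29% of genes lower and 10.7% higher without overlap. No tested member had an unadjusted edgeR p under 0.05 (3.83% of genes did), and none was called by edgeR (0.01%) or DESeq2 (0.0701%). Fold changes ran from -0.16 for *Tlr4* to 1.07 for *Il6* on the log2 scale, the latter with an SE of 0.84. *Ccl2* was 0.83 (SE 0.53) higher in KO_P on this scale. A lower mean in KO_P than in WT_P was found for 6 of 14 macrophage markers, 1 of them without overlap.

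The PTX effect on *Myd88* differed between the genotypes at an unadjusted level only. Its change after PTX was -0.41 in WT and 0.06 (SE 0.14) in KO on the log2 scale, a difference of 0.46 (SE 0.19) with an unadjusted edgeR p of 0.0360 and an adjusted p of 0.759. With membership in the low-count set added to the model, the difference was 0.45 and its unadjusted p was 0.0962. This comparison, PTX in WT and KO against WT controls share the 3 WT_V libraries, in which *Myd88* was highest. Across all genes, 6.16% had an unadjusted p under 0.05 for this difference, against 1 of 9 members, and 0 members passed the adjusted threshold in edgeR (0.00501% of genes) or DESeq2 (0.200%). Averaged over both treatments, KO and WT differed in no member at an unadjusted p under 0.05 (3.71% of genes did), and 0 members were called by edgeR (0.01% of genes) or DESeq2 (0.175%).

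The other genes of these pathways were not called by edgeR either, and DESeq2 called 2 of them for PTX in WT, *Socs3* and *Il4ra*. In that comparison DESeq2 gave no adjusted p to some low genes of the lists, which count here as not called. Of 10 lists of pathway genes, 0 genes passed the adjusted threshold of edgeR in any comparison. TLR4's partners and ligands were measured in each library. *S100a9* and *S100a8*, alarmin proteins of neutrophils that activate TLR4, had means of 14.64 and 5.45 FPKM with ranges of 3.32 to 39.34 and 1.13 to 15.83 FPKM, highest in WT_V 2. *Hmgb1*, a nuclear protein that signals through TLR4 once released, was 8.94 to 13.06 FPKM. Of these 7 genes, 1 had an unadjusted p under 0.05 for PTX in WT (11.3% of all genes did). This was *Ly96*, at 1.32, 1.31 and 1.59 FPKM in WT_V and 0.75, 1.24 and 0.48 FPKM in WT_P (log2 fold change -0.78, SE 0.34, adjusted edgeR p of 0.432). The 11 other Toll-like receptors had 0 genes with an unadjusted p under 0.05 for PTX in WT, and DESeq2 called 0.

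Among 14 adaptors and kinases downstream of Toll-like and IL-1 receptors, 2 were lower at an unadjusted p under 0.05 for PTX in WT (6.06% of all genes). These were *Myd88* and *Tab1*, a partner of the kinase TAK1. The most abundant were *Tollip*, an inhibitor of the pathway, at 35.2 FPKM, *Tab2* at 11.9 FPKM and *Irak1*, a kinase recruited by MYD88, at 10.05 FPKM. The median log2 fold change of this list was 0.01, beside -0.41 for *Myd88*. Of 11 NF-kB genes, 2 were lower at that level (6.06% of all genes), *Rela* and *Nfkb2*, both subunits of NF-kB. *Rela*, the most abundant subunit gene, had a mean of 11.8 FPKM and a log2 fold change of -0.30 (SE 0.097, adjusted edgeR p of 0.352), ahead of *Chuk* at 7.19 FPKM and *Nfkbia*, the inhibitor of NF-kB, at 7.05 FPKM. DESeq2 called none of either list.

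The IL-1 family gave 1 higher gene at an unadjusted p under 0.05 for PTX in WT (11.3% of all genes in either direction). This was *Il1rap*, the accessory chain of the IL-1 receptor, at 0.74, 0.78 and 0.87 FPKM in WT_V and 1.15, 0.99 and 0.91 FPKM in WT_P (log2 fold change 0.34, SE 0.11, adjusted edgeR p of 0.359). *Il18* was the most abundant of the 13, before *Il33*, an alarmin cytokine, at 2.45 FPKM and *Il1r1*. *Il18* itself was 2.56 to 3.83 FPKM over all libraries and *Il1r1* 1.00 to 2.60 FPKM, and their groups overlapped in each comparison. Of 8 inflammasome genes, which process pro-IL-1β and pro-IL-18, 7 were tested and 0 had an unadjusted p under 0.05 for PTX in WT. *Casp1*, the processing protease, was highest at 2.52 FPKM, followed by *Gsdmd*, the pore-forming protein, at 1.43 FPKM and *Casp4*, an inflammatory caspase, at 0.496 FPKM. In the list of TNF and its receptors, 2 of 9 tested genes were lower at that level (6.06% of all genes). These were *Tnfrsf1a* and *Tnfrsf1b*, which encodes the second TNF receptor (log2 fold change -0.59, SE 0.26, adjusted edgeR p of 0.434). *Birc2* at 5.94 FPKM and *Tradd* at 5.17 FPKM, both part of the complex at the TNF receptor, were next in level after *Tnfrsf1a*.

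The IL-6 family was dominated by its signaling chains. *Lifr*, the LIF receptor, had a mean of 50.7 FPKM, *Jak1*, the kinase of these receptors, 50.3 FPKM and *Il6st* 42.0 FPKM, whereas *Il6ra*, the chain that binds IL-6, was 0.31 to 0.67 FPKM. *Il6st* was 36.68, 39.34 and 42.76 FPKM in WT_V and 44.59, 42.32 and 40.16 FPKM in WT_P, and the groups overlapped. For PTX in WT, the genes of this list with an unadjusted p under 0.05 included *Tyk2* and *Socs3*, which were lower, and *Jak1*, which was higher. *Socs3*, a feedback inhibitor that is itself induced by this pathway, was 4.58, 7.07 and 2.44 FPKM in WT_V and 2.83, 2.50 and 2.02 FPKM in WT_P. Its log2 fold change was -0.89 (SE 0.27), with an adjusted p of 0.331 in edgeR and 0.0387 in DESeq2, the only DESeq2 call in this list, although its groups overlapped.

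Of the 10 pathway lists, chemokines and their receptors held the most lower genes for PTX in WT. Of 16 tested, 15 had a negative log2 fold change (52.4% of all genes), 6 were lower at an unadjusted p under 0.05 (6.06% of all genes) and 1 was higher, with 0 called by edgeR or DESeq2. The 6 were *Ccl2*, *Ccl8*, *Ccl12*, *Ccr1*, *Cxcl10* and *Cx3cr1*, of which *Ccl8* and *Ccl12* lie in the same chemokine family as *Ccl2* and *Cx3cr1* also stood in the macrophage list. *Ccr1*, a receptor of inflammatory chemokines on myeloid cells, was 0.41, 0.73 and 0.42 FPKM in WT_V and 0.23, 0.13 and 0.22 FPKM in WT_P (log2 fold change -1.40, SE 0.38, adjusted edgeR p of 0.298). *Cxcl10*, an interferon-inducible chemokine, was 1.71, 3.76 and 1.13 FPKM in WT_V and 0.96, 1.35 and 0.74 FPKM in WT_P, with overlap (-1.05, SE 0.32, adjusted edgeR p of 0.329). *Ccl2*, *Ccr1* and *Cxcl10* were all highest in the control WT_V 2. The list summed to 25.3, 34.67 and 24.26 FPKM in WT_V 1 to 3 and to 18.9 to 22.25 FPKM in WT_P. The gene that was higher, *Ccl3*, had 0 counts in the 3 WT_V libraries and 10, 11 and 13 counts in WT_P. Its log2 fold change was 6.51 (SE 1.83) for PTX in WT and 6.85 (SE 1.83) for KO against WT controls. Both rest on the 0 counts of WT_V, and for PTX in KO it was 0.59 (SE 1.37). The adjusted edgeR p-values were 0.326, 0.732 and 0.997. For PTX in WT, DESeq2 gave no adjusted p to *Ccl3*, *Ccl8* or *Ccl12*. The median log2 fold change of the list was -0.61 for PTX in WT and -0.14 for PTX in KO, beside -0.02 and -0.01 over all genes. By mean FPKM the list was led by *Cxcr4* at 5.57, its ligand *Cxcl12* at 5.55 and *Cx3cl1*, the ligand of CX3CR1, at 2.28. *Cx3cl1* was higher in KO_P at an unadjusted p of 0.00371 (adjusted edgeR p of 0.951), at 5.02 FPKM in KO_P 3, with KO_P 2 at 2.46 FPKM and KO_V at 1.46 to 1.96 FPKM.

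Of 8 tested genes of anti-inflammatory cytokines and their receptors, 1 was lower at an unadjusted p under 0.05 for PTX in WT (6.06% of all genes). This was *Il4ra*, the IL-4 receptor, at 8.87, 11.98 and 6.89 FPKM in WT_V and 6.84, 6.86 and 5.98 FPKM in WT_P, with a narrow gap and no overlap (log2 fold change -0.49, SE 0.13, adjusted p of 0.298 in edgeR and 0.0318 in DESeq2). *Il10rb*, a chain of the IL-10 receptor, was 13.44 to 16.89 FPKM. *Il4* was listed at 6.82 to 10.05 FPKM in every library, although *Il13*, a T helper cytokine encoded near it, was 0 to 0.07 FPKM and 4 T cell markers summed to at most 1.15 FPKM.

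For the 6 members with a mean of at least 1 FPKM, the genes most like them over the 11 libraries were found by Pearson r of log2(FPKM + 1) among 13091 genes with a mean of at least 1 FPKM. These values are a description, with depth and sample composition shared by all genes of a library. *Tnfrsf1a* was most like *Lamb1* (r = 0.969), *Col4a2* (0.948) and *Wbp1l* (0.941), the first pair of which encode basement membrane proteins. *Myd88* was most like *Tbrg4* (0.952), *Gm15421* (0.925) and *Smpd1* (0.907), and *Ccl2* was most like *Mreg* (0.924), *Ngfr* (0.888) and *Alkal2* (0.886). *Il1r1* shared *Alkal2* (0.960) with *Ccl2*, followed by *Fosl2* (0.950) and *Stat2* (0.947). *Il6st* was most like *Cog5* (0.947), *Tacc1* (0.936) and *Arhgap24* (0.934), and *Il18* was most like *Sec13* (0.946), *Arpc5l* (0.944) and *Tmem147* (0.938).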

How the data were processed

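Poly(A) RNA libraries were made with a strand-specific kit per the labels. The submitters' processing notes name cutadapt, FastQC, HISAT2, StringTie and the mm10 build without versions. The authors deposited 1 table of FPKM, scaled by them for transcript length and library size, and of estimated counts without normalization, which were rounded to whole numbers here. FPKM was used as deposited for levels. Changes were tested on the estimated counts with edgeR 4.0.16 in R 4.3.3 (TMM, quasi-likelihood, 11 libraries in one fit, labelled sex as covariate) over the 19977 genes with a mean count of at least 10, with Benjamini-Hochberg adjustment and a threshold of 0.05. Each SE is the log2 fold change over the root of its F statistic. DESeq2 1.42.0 and limma 3.58.1 were run as alternatives, and edgeR was tested on simulated data. Levels and figures were made with pandas 2.3.3, numpy 2.4.6 and matplotlib 3.10.9 in Python 3.11.15.

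Groups, sex and replicate numbers came from the sample labels. Titles and descriptions number the KO PTX libraries differently, and the descriptions were used. The members, the pathway and marker lists and the tests were chosen with earlier results of these data known. All members were named with their levels, and fold changes with adjusted p-values were printed for members at an unadjusted p under 0.05, besides the 3 most abundant genes of each pathway list and the 3 genes most like each member. Other genes of these lists and *Per3* were named after their values were seen. Of the members, 8 had the same coordinates in GENCODE M21. Some results on single genes of the lists are not reported here.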

Additional observations from a re-analysis of the deposited data

How the results depend on the processing

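The count of members called stayed at 0 in all 7 comparisons under every alternative run, except that DESeq2 called 1 member, *Tnfrsf1a*, for PTX over both genotypes. No fold change of a member with an unadjusted p under 0.05 reversed. Most alternatives left out 1 library, and where the groups did not overlap, such a fit was expected to keep the sign. The unchanged direction is therefore no evidence of stability there. For PTX in WT, the log2 fold changes ranged from -0.50 to -0.32 for *Myd88*, -0.34 to -0.26 for *Tnfrsf1a* and -1.58 to -0.72 for *Ccl2*, where -0.72 came from limma on log2(FPKM + 1). The unadjusted p stayed under 0.05 in 20, 21 and 16 of 21 alternatives, and the adjusted p was 0.126 to 0.767, 0.0703 to 0.767 and 0.147 to 0.767. For *Myd88*, KO minus WT controls ranged from -0.41 to -0.24 (adjusted p of 0.5 to 0.964), with an unadjusted p under 0.05 in 15 of 21 alternatives, and the difference of the PTX effect from 0.34 to 0.60 (0.512 to 1), with 10 of 19. Counts of all genes called moved with the tool. DESeq2 called 314 genes for PTX in WT and 57 in KO, 66 for KO minus WT controls, 14 for KO minus WT after PTX, 40 for the difference of the PTX effect, 139 for PTX over both genotypes and 35 for KO over both treatments, where edgeR called 1, 1, 1, 2, 1, 2 and 2. For PTX in WT, edgeR called 2 without a filter, 0 without the sex covariate, 5 with only the groups compared and 0 in the 7 deeper libraries, which gave 2 for KO minus WT controls. Only the groups compared gave 3 for PTX in KO and 4 for KO minus WT after PTX. PTX over both genotypes gave 1 without sex and 0 under limma. With the 4 low-total libraries as a covariate, PTX in KO gave 2, the difference 2, PTX over both genotypes 4 and KO over both treatments 4. Leaving out 1 library gave 0 to 10 genes for PTX in WT and 1 to 6 in KO, 1 to 4 for KO minus WT controls, 2 to 7 for KO minus WT after PTX, 1 to 5 for the difference, 1 to 9 for PTX over both genotypes and 2 to 5 for KO over both treatments. The cause of these moves was not tested. The fits with low-total libraries were added after the data were seen.

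Whether replicate numbers pair the samples was not settled. Of 15 same-numbered pairs, 5 had a correlation of deviations over 0.1, with a range of -0.161 to 0.187. The mean was 0.055 for same-numbered pairs and -0.027 for the others. Deviations from means of 3 or 2 libraries are tied to each other, so these values cannot exclude a pairing. With the replicate block in place of sex, 1 gene was called for PTX in WT, and the log2 fold changes there were -0.41 for *Myd88*, -1.10 for *Ccl2* and -0.32 for *Tnfrsf1a*. No call changed under the block. With 3 or 2 libraries per group, and 0 to 64 counts per library for *Il6*, *Il1b* and *Tnf*, changes of these cytokines were measured with wide errors.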

Other observations

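KO_P 3 had the highest value of several lymphoid and chemokine transcripts outside the members. *Lta* was 0.47 FPKM in KO_P 3 and *Ltb* 0.82 FPKM, both cytokines of the TNF family made by lymphocytes. *Ccl3* was 0.81 FPKM and *Ccl4*, a related chemokine, was 1.03 FPKM in this library. *Ccl3* had 38 counts there and 4 counts in KO_P 2. For PTX in KO, *Ltb* and *Ccl3* had adjusted edgeR p-values of 0.995 and 0.997, and *Lta* and *Ccl4* were too low to be tested.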
